A study of Mus musculus with 4 samples.

Results

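The receptor-interacting protein (RIP) kinases Ripk1, Ripk2, Ripk3 and Ripk4 and the pseudokinase Mlkl were followed in unstimulated cells of 2 mouse fibroblast lines. The genes were chosen by name, with their difference between the lines already known, and all probe sets whose annotated gene symbol contained a member were taken, including any with several symbols. This gave 4 probe sets for 3 of the 5 members, of 18193 genes with a probe set of their own: 1 for Ripk3, 1 for Mlkl and 2 for Ripk4, each with a single symbol. No probe set was annotated to Ripk1 or Ripk2, and both are not analysed here.

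L929 is a line from mouse connective tissue that the submitters describe as sensitive to necrosis, and NIH3T3 is a line from mouse embryos that they describe as sensitive to apoptosis. Neither line was stimulated, and the labels give no genotype, treatment or passage. Total RNA of 2 samples per line was hybridised to Affymetrix Mouse Genome 430 2.0 arrays, and each line stands alone for its way of dying. The labels do not say that the 2 samples of a line were separate cultures, so a p-value covers no more than the variation between those samples, part or all of it possibly technical.

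Necroptosis is a regulated form of necrosis that follows signals from death receptors such as the TNF receptor, from some Toll-like receptors and from the nucleic acid sensor Zbp1. When caspase-8 is held back, Ripk1 binds Ripk3 through a shared interaction motif, the assembly known as the necrosome forms, and Ripk3 phosphorylates Mlkl, which then breaches the plasma membrane. Ripk2 serves the Nod receptors of bacterial cell wall fragments, and Ripk4 acts in the differentiation of the epidermis. L929 cells are a classical model of necrosis induced by TNF.

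Because Ripk3 is the member that separates the lines, the stretch before its gene start is shown, with every CG dinucleotide and the single GGGCGG box, a sequence bound by Sp1, in capitals. It is the 250 bases upstream of the annotated start on the minus strand, chr14:55788858-55789107 of GRCm38.p6, from RefSeq, read 5′ to 3′ towards the gene. A long non-coding RNA gene, Gm32092, is annotated across Ripk3 and this stretch, and whether the Ripk3 probe set also reads it was not tested.
Ripk3: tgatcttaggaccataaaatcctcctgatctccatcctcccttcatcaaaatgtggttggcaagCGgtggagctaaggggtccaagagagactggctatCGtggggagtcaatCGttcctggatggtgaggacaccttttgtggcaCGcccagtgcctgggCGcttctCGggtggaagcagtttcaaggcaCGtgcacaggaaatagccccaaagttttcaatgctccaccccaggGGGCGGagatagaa

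The Ripk3 stretch held 8 CG dinucleotides, 1 of them inside the GGGCGG box. The median was 6 over 32851 promoter stretches of the same length, of which 43% held 8 or more. The GGGCGG box, searched on both strands, began 14 bases before the gene start and occurs in 32.7% of all stretches. The Mlkl stretch held 5 CG dinucleotides and 0 GGGCGG boxes, and the 2 annotated Ripk1 starts had 19 and 32 CG dinucleotides with 2 and 4 boxes. The letters TATAAA, present in 12.4% of all stretches, had 0 matches in these windows on either strand. These matches describe the sequence alone, and no methylation or binding was measured.

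Values are MAS5 signals, which have arbitrary units, after the arrays were brought to a common trimmed mean. A level of 17.3, the 40th percentile of these signals, served to separate brighter from dimmer probe sets. It is a percentile and not a detection limit. After scaling, 58.7% to 60.8% of the probe sets lay above it on each array. The epithelial gene Epcam measured 60.5 and 57.4 in L929 and 60.6 and 81.0 in NIH3T3, so that a signal of this size was also seen for a gene that marks neither line. A log2 difference is always that of L929 minus NIH3T3 after an offset of 8.01 was added to the scaled signals. A gene was called if limma gave a Benjamini-Hochberg adjusted p under 0.05 and a fold above 1.5, the thresholds named by the submitters.

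Ripk3, the kinase that forms the core of the necrosome and phosphorylates Mlkl, was bright in L929 and near the bottom of the array in NIH3T3. The 2 arrays of L929 read 1025 and 929.9, whereas those of NIH3T3 read 1.80 and 1.92. Both L929 arrays lay above both NIH3T3 arrays, as for 37.6% of the genes tested, and the arrays of a line differed little from each other. Whether fewer cells carried the transcript in NIH3T3 or each cell held less of it cannot be told apart in such bulk RNA. As deposited, before scaling, the signals were 954 and 819 against 1.59 and 2.64. Among the probe sets of an array, Ripk3 lay at percentiles 94.7 and 94.3 in L929 and at 7.76 and 7.77 in NIH3T3. The mean was 978 ± 67.6 in L929 (SD, n = 2) and 1.86 ± 0.0846 in NIH3T3 (SD, n = 2).

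Since both NIH3T3 signals lay below the level of 17.3, the difference is given as a bound, and L929 was at least 56.6-fold above that level. The fitted log2 difference of 6.64 is no bound and depends on the offset, at 8.42 with an offset of 1 and 4.90 with an offset of 32. These values are given without a test, because Ripk3 was proposed for this difference. A single probe set stands for Ripk3, so no further probe set of the gene could be set beside it.

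Mlkl, the pseudokinase that executes the membrane breach, was bright in both lines. Its scaled signal was 769 and 727 in L929 and 977 and 925 in NIH3T3, or 748 ± 29.4 against 951 ± 36.8 (SD, n = 2 each). Both L929 arrays lay below both NIH3T3 arrays, as was the case for 36.2% of the genes tested. Its percentiles were 93.0 and 92.7 in L929 and 94.6 and 94.4 in NIH3T3. The log2 difference was -0.34, a 1.27-fold higher level in NIH3T3 that lay under the fold threshold, and it was -0.63 or 1.54-fold in the signals as deposited, where NIH3T3 replicate 2 is brighter throughout. Mlkl too is measured by a single probe set.

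Ripk4, a kinase with ankyrin repeats that keratinocytes need to differentiate, was dim in both lines. Probe set 1418487_at measured 2.69 and 4.68 in L929 and 6.24 and 11.8 in NIH3T3, and probe set 1418488_s_at measured 1.12 and 0.697 in L929 and 2.36 and 0.466 in NIH3T3. All 8 values lay below 17.3. The log2 differences were -0.53 and -0.07, and no direction is read from signals this dim. Percentiles ran from 12.1 to 30.8 for the first and from 0.333 to 10.5 for the second, and neither passed the filter on low values.

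**Figure D1:**
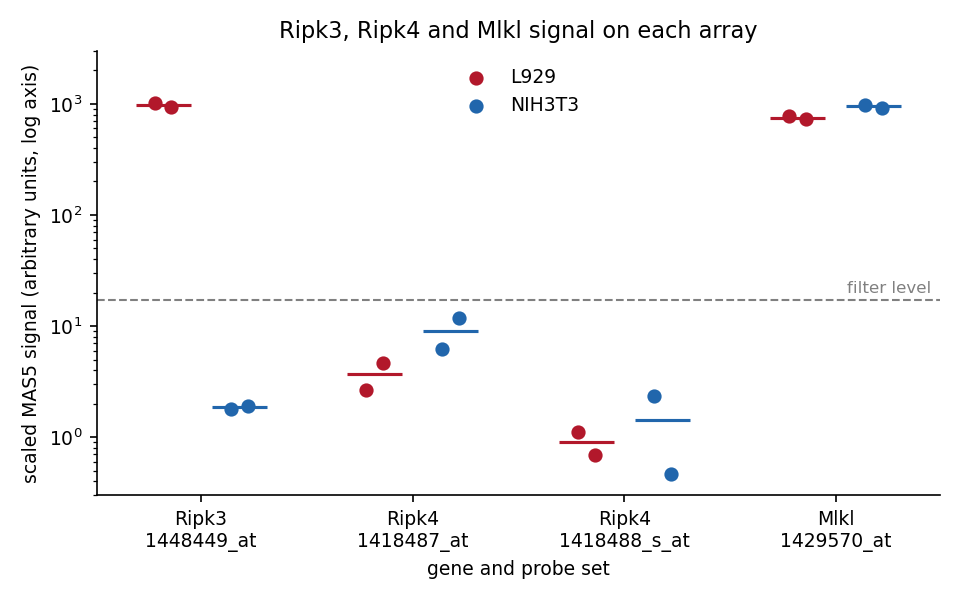
Scaled MAS5 signal (log axis, arbitrary units) of the 4 member probe sets on each array, with L929 in red, NIH3T3 in blue, bars for line means over 2 arrays, and the filter level of 17.3 dashed. Ripk3 sits near 978 in L929 and 1.86 in NIH3T3, Mlkl is bright on all 4 arrays, and both Ripk4 probe sets stay below the level.

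By these signals, transcripts of both Ripk3 and Mlkl were present in L929, whereas NIH3T3 had the Mlkl signal with Ripk3 below the level on both arrays. The state of Ripk1 is not analysed here, and RNA levels say nothing of protein or phosphorylation. Of the 2 members that were tested, Ripk3 was called higher in L929, where 17.3% of all genes tested were called higher, and Mlkl was not called, where 17.7% of genes were called lower. Since the members were proposed from this contrast, these counts are given as a description.

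Over all 18193 genes with a probe set of their own, taking the brightest for each, 525 or 2.89% were above the level on both L929 arrays and on neither NIH3T3 array, as Ripk3 was. The reverse pattern held for 568 genes, or 3.12%. The Mlkl pattern, above the level on all 4 arrays, was shared by 56.6% of genes. The Ripk4 pattern, above it on no array, was shared by 19.7%.

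**Figure D2:**
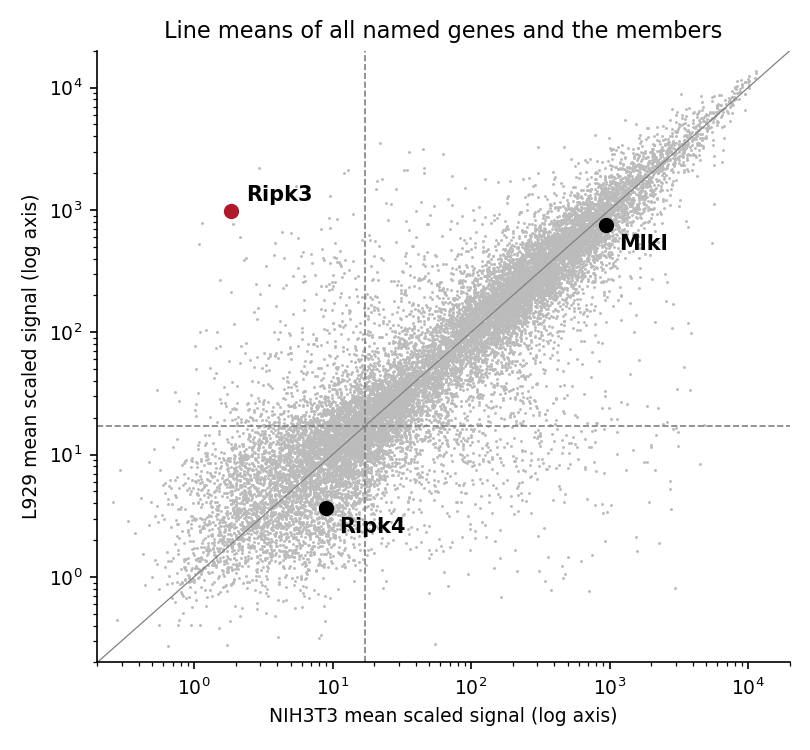
Mean scaled signal in NIH3T3 (horizontal, log axis) against L929 (vertical, log axis) for 18193 genes in grey, with Ripk3 in red, and Mlkl and the brighter Ripk4 probe set in black; dashed lines mark the level of 17.3 and the solid line marks equality. Ripk3 lies far above the line at 978 against 1.86, Mlkl lies just below it at 748 against 951, and Ripk4 lies in the dim corner at 3.68 against 9.0.

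The libraries bore out their labels in part. Of 15 fibroblast markers, 12 lay above the level on both L929 arrays and 14 on both NIH3T3 arrays, and their summed signal ran from 47380 to 49450 in L929 and from 41270 to 52560 in NIH3T3. The fibroblast proteoglycan gene Dcn measured 19 and 2.78 in L929 against 1382 and 1572 in NIH3T3, and the surface marker Thy1 measured 18 and 30 against 2193 and 2253. Of 11 measured leucocyte markers, 7 lay above the level on both L929 arrays and 5 on both NIH3T3 arrays, with sums of 310 and 313 in L929 and 493 and 501 in NIH3T3. Of these markers, Ptprc, at 11.9 and 0.987 in L929, Itgam, at 1.41 and 1.98, and Cd3e, at 4.27 and 10.2, lay below the level on all 4 arrays. Cd68, Adgre1, Csf1r, Cd14 and Spi1 lay above it on all 4 arrays, with Csf1r at 93.3 and 72.9 in L929 and 80.6 and 93.1 in NIH3T3. The myeloid gene Lyz2 read 36.9 and 43.5 in L929 against 17.3 and 6.25 in NIH3T3, and Cd14 read 54.2 and 41.3 against 238 and 215. Their part in the Ripk3 signal was not tested. Epithelial and endothelial markers, 3 of 8 and 1 of 5 above the level in L929, and 3 of 8 and 0 of 5 in NIH3T3, had sums of at most 195.

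The genes most like a member over the 4 arrays were found by Euclidean distance of log2 values, among 11935 tested genes. The members and genes with clone or predicted-gene names were left out of this comparison. This distance sets signals of different probe sets beside each other, so it describes the arrays' readings and not equal amounts of RNA. Nearest to Ripk3 was Pla2g5, a secreted phospholipase A2, at a distance of 0.504, with 769 and 760.1 in L929 and 1.99 and 1.83 in NIH3T3. The HOX gene Hoxc10 came next at 0.634, followed by the aldo-keto reductase Akr1c12 at 0.929, Lonrf3 at 1.0 and the interferon-inducible Mndal at 1.03. All 5 had a bright L929 and a dim NIH3T3 signal, which their choice by distance to Ripk3 fixed in advance. Of these genes, 2 remained among the 5 nearest without NIH3T3 replicate 1 and also 2 without NIH3T3 replicate 2.

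The 5 genes nearest to Mlkl lay at distances of 0.0814 to 0.101. They were Prkci, an atypical protein kinase C, at 0.0814, the kinesin heavy chain Kif5b at 0.0825, Fam98b at 0.0909, the splicing factor Sf3a3 at 0.094 and the selenophosphate synthetase Sephs2 at 0.101. Prkci measured 782 and 748 in L929 and 1023 and 924 in NIH3T3. Of these 5 genes, 2 remained without L929 replicate 2, 2 without NIH3T3 replicate 1 and 3 without NIH3T3 replicate 2.

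The 5 nearest protein-coding genes on each side of Ripk3 on chromosome 14 did not share a direction. Sdr39u1, a short-chain dehydrogenase gene and the fifth on the side of higher coordinates, was the only 1 of the 9 measured neighbours above the level in L929 alone. Its signal was 392 and 418 in L929 against 3.74 and 5.15 in NIH3T3, which puts L929 at least 23-fold above (adjusted p = 6.79e-07). Its other tested probe set read 18 and 21.6 in L929 against 14.6 and 22.3 in NIH3T3, with overlapping lines and a log2 difference of 0.09, and the mean of both was 2.57. The gene next to Ripk3 on that side, Nfatc4, a transcription factor of calcium signalling, went the other way, with 26.7 and 57.3 in L929 against 238 and 256 in NIH3T3 (log2 difference -2.42, adjusted p = 1.96e-04), and its tested probe sets ran from -2.56 to -0.67. Nynrin, the next gene, measured 9.29 and 8.23 against 55.2 and 26.8 (log2 difference -1.48, adjusted p = 0.00879), a call lost without NIH3T3 replicate 1 (0.0885).

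On the other side, the adenylyl cyclase gene Adcy4, adjacent to Ripk3, was dim on all 4 arrays, between 3.97 and 14.2. Of 6 tested neighbours 1 was called higher and 2 lower, where 34.9% of all genes tested were called in either direction. Around Mlkl on chromosome 8, 1 of 8 tested neighbours was called: the lactate dehydrogenase Ldhd, at 44.1 and 38.3 in L929 against 17.3 and 8.98 in NIH3T3 (adjusted p = 0.0113). That call was lost without L929 replicate 1 (0.0611) or NIH3T3 replicate 2 (0.0652), and the log2 difference moved from 1.24 to 1.99 without NIH3T3 replicate 1. The adjacent ubiquitin ligase gene Rfwd3 measured 759 and 722 in L929 against 571 and 543 in NIH3T3 and lay under the fold threshold.

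**Figure D3:**
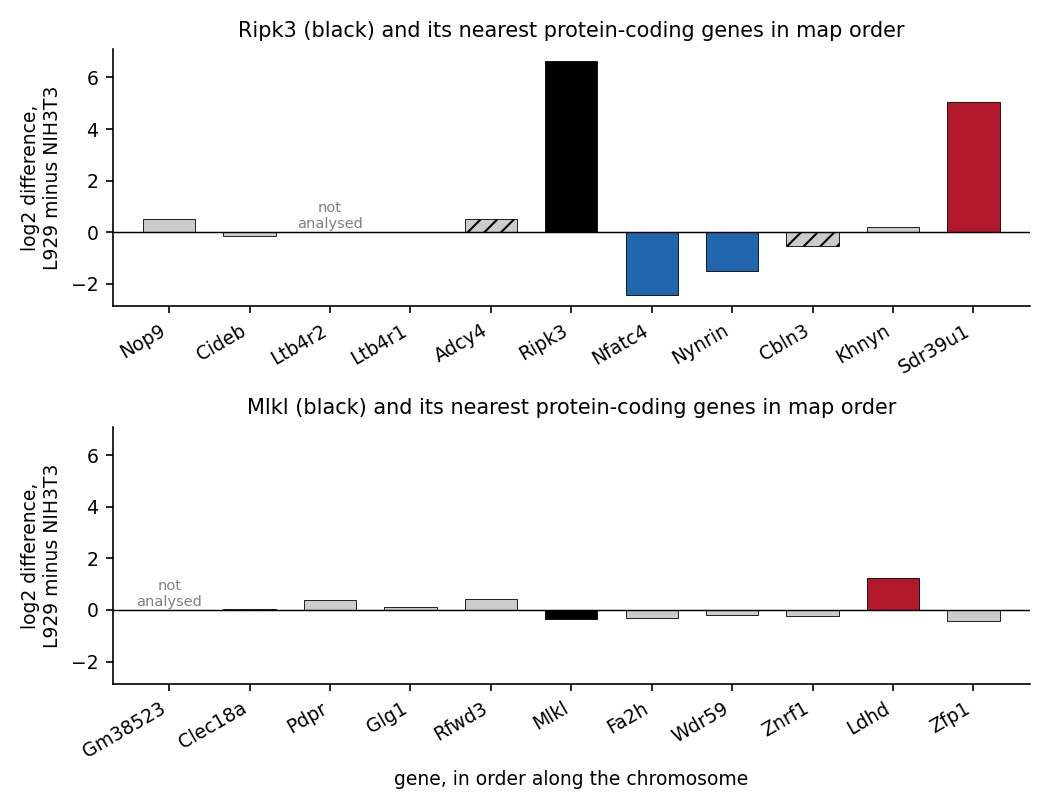
Log2 difference of L929 minus NIH3T3 (vertical) for Ripk3, Mlkl and the 5 nearest protein-coding genes on each side, in map order along the chromosome; red and blue bars were called higher and lower in L929, grey bars were not called, black bars are the members, and hatched bars were too dim to be tested. Ripk3 at 6.64 and the brighter Sdr39u1 probe set at 5.05 stand up on either side of Nfatc4 at -2.42 and Nynrin at -1.48, and the bars around Mlkl are short.

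The genes around the members were taken from 11 lists of the pathway with 115 distinct genes, 107 of them with a probe set of their own. Of the 95 tested, 16 were called higher in L929 and 11 lower, or 28.4% in all against 34.9% of all genes tested (17.3% higher and 17.7% lower), with a median log2 difference of 0.00 against 0.01 over all genes tested. At an unadjusted limma p under 0.05, 28 of the 95 were higher and 26 lower. Over all 12676 genes tested, 3351 were higher and 3364 lower at that limit, the background for such counts below. In the signals as deposited, 3 list genes were higher and 13 lower, and over all genes the share of calls that were higher in L929 moved from 49.5% to 31.2%, with the median log2 difference of all genes at -0.26. Standard errors of the log2 differences of the called list genes ran from 0.103 for Dnm1l to 0.422 for Birc3. The calls higher in L929 that this removed were Traf2, Otulin, Tnip1, Azi2, Chmp2a, Vps4a, Mertk, Tyro3, Xiap, Card6, Trp63, Tet2 and Lrrk1, all of which kept their sign.

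Among the receptors and sensors upstream, 2 of 8 tested genes were lower in L929 and 0 higher (2 higher at an unadjusted limma p under 0.05), and 5 were too dim to test. Fas, a death receptor, measured 3.49 and 3.42 in L929 against 19.5 and 34.8 in NIH3T3, so that L929 was at least 1.51-fold lower (adjusted p = 0.00491, and 0.0685 without NIH3T3 replicate 2). Tnfrsf10b, the mouse TRAIL receptor, measured 17.9 and 20.9 in L929 against 43.6 and 50.9 in NIH3T3 (log2 difference -1.01, adjusted p = 0.0153, with its other tested probe set at -0.38). The call of Tnfrsf10b was lost without L929 replicate 1, where the log2 difference was -0.93. It was also lost without NIH3T3 replicate 2, where the difference was -0.46. That is not the value of the probe set quoted above, because each run chose the brightest tested probe set anew.

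The main receptor of TNF-induced necroptosis, Tnfrsf1a, was bright in both lines, at 627 and 734 in L929 and 815 and 840 in NIH3T3, and was not called. Toll-like receptor 3, encoded by Tlr3, read 3.89 and 20.0 in L929 and 20.0 and 7.05 in NIH3T3, so that each line had an array on either side of the level. Its adaptor Ticam1, which binds RIP kinases through the same motif, measured 85.9 and 99.5 against 62.7 and 89.1, with overlapping lines. Zbp1, the sensor that engages Ripk3 directly, stayed below the level on all 4 arrays, from 2.67 to 14.4.

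In the TNF receptor complex and its ubiquitin machinery, which modify Ripk1, 3 of 13 tested genes were higher in L929 and 1 lower. The adaptor Traf2 measured 235 and 245 in L929 and 114 and 96.3 in NIH3T3 (log2 difference 1.14, adjusted p = 3.68e-04). Otulin, which removes linear ubiquitin chains, measured 393 and 369 against 194 and 235 (0.81, adjusted p = 0.00115), and Tnip1, a partner of the editing enzyme A20, was 1.58-fold higher (adjusted p = 0.00176). The ubiquitin ligase Birc3, or cIAP2, measured 2.85 and 17.2 in L929 against 88.2 and 142 in NIH3T3, so that L929 was at least 6.48-fold lower (adjusted p = 7.41e-04). Its log2 difference of -2.86 was -2.25 without L929 replicate 1 and -3.47 without L929 replicate 2.

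Birc2, or cIAP1, measured 188 and 135 in L929 and 126 and 162 in NIH3T3 and overlapped between the lines. The adaptor Tradd stood at 260.4 and 238 against 199 and 196, and the deubiquitinase Cyld at 362 and 385 against 307 and 345. Neither was called, and their tested probe sets ran from -0.24 to 0.32 and from -0.54 to 0.19. Tnfaip3, which encodes A20, measured 49.3 and 61.2 against 22.0 and 37.0 (adjusted p = 0.0601), and would be called without NIH3T3 replicate 2 (0.0369), with median scaling (0.0343) or with quantile normalization (0.0304).

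Among the kinases that restrain Ripk1, such as Map3k7 (TAK1), Tbk1 and Mapkapk2 (MK2), and their scaffolds, 1 of 12 tested genes was higher in L929 and 0 lower (4 lower at an unadjusted limma p under 0.05). The higher gene was Azi2, a Tbk1 adaptor, at 439 and 478 against 224 and 223 (log2 difference 1.01, adjusted p = 1.48e-04), although its other tested probe set differed by -0.77. Map3k7 measured 320 and 288 in L929 and 379 and 392 in NIH3T3, and Mapkapk2 427 and 442 against 500 and 498, each under the fold threshold. The 5 tested probe sets of Map3k7 ran from -0.93 to 0.23. In this list 2 genes were lower without L929 replicate 2, and 2 were higher without NIH3T3 replicate 2.

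The caspase-8 arm, which cleaves Ripk1 and Ripk3 and so opposes necroptosis, had 0 of 3 genes called (1 higher at an unadjusted limma p under 0.05). Fadd, the adaptor, measured 170.2 and 174 in L929 and 134 and 152 in NIH3T3, and Casp8 measured 420.4 and 445 against 323 and 384. Cflar, which encodes FLIP, measured 182 and 210.4 against 215 and 308, and was called lower without NIH3T3 replicate 1 (log2 difference -0.63, adjusted p = 0.0209). The tested probe sets of Fadd ran from -0.28 to 0.26 and those of Cflar from -0.38 to 1.71.

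Of the chaperones and modifiers of Ripk3, 1 of 7 tested genes was lower in L929 and 0 higher, with a median log2 difference of -0.31. At an unadjusted limma p under 0.05, 3 were lower and 0 higher, where 3364 and 3351 of all 12676 genes tested were. The gene that was lower, Peli1, encodes a ubiquitin ligase that marks active RIPK3 for removal. It measured 100.1 and 88.0 in L929 and 194 and 186 in NIH3T3 (log2 difference -0.96, adjusted p = 0.00117). The chaperone Hsp90aa1 measured 4531 and 4191 against 5904 and 5099, its kinase-specific partner Cdc37 measured 1798 and 1839 against 2111 and 1856, and the phosphatase Ppm1b, which acts on RIPK3, measured 807 and 793 against 768 and 756. None of these 3 was called. The tested probe sets of Ppm1b ran from -1.14 to 0.07, with a mean of -0.39. Ogt, which adds sugar residues to Ripk3, measured 507 and 475 in L929 and 657 and 665 in NIH3T3 (log2 difference -0.42, adjusted p = 0.00963) and lay under the fold threshold.

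Downstream of Ripk3 and Mlkl, 3 of 12 tested genes were higher in L929 and 2 lower. The glycogen phosphorylase Pygl, an enzyme reported to bind RIPK3, measured 454 and 408 in L929 against 4.11 and 3.40 in NIH3T3, so that L929 was at least 25-fold higher (adjusted p = 5.7e-07). The TAM receptor kinases, reported to promote the oligomerisation of MLKL, split: Axl measured 277 and 319 in L929 against 2626 and 2390 in NIH3T3 (log2 difference -3.04, adjusted p = 4.02e-07), while Mertk measured 112 and 111 against 55.4 and 46.4 (1.02, adjusted p = 0.00357). Tyro3 was 1.61-fold higher (adjusted p = 0.015), a call lost without L929 replicate 1 (0.0771) or NIH3T3 replicate 1 (0.0533). Dnm1l, the mitochondrial fission GTPase, measured 543 and 513 against 941 and 979 (-0.85, adjusted p = 2.41e-04).

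Genes of membrane repair and of the release of damaged membrane, which limit the effect of MLKL, had 2 of 12 tested members higher and 1 lower. The ESCRT genes Vps4a, at 617 and 613 against 311 and 338 (log2 difference 0.91, adjusted p = 1.98e-04), and Chmp2a, at 1117 and 972 against 596 and 573 (0.83, adjusted p = 4.76e-04), were higher in L929. Flot1, a flotillin of membrane microdomains that takes part in the uptake of MLKL, measured 134 and 150 in L929 and 621 and 662 in NIH3T3 (-2.12, adjusted p = 2.85e-06). The lower count was 2 when L929 replicate 2 or either NIH3T3 array was left out.

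**Figure D4:**
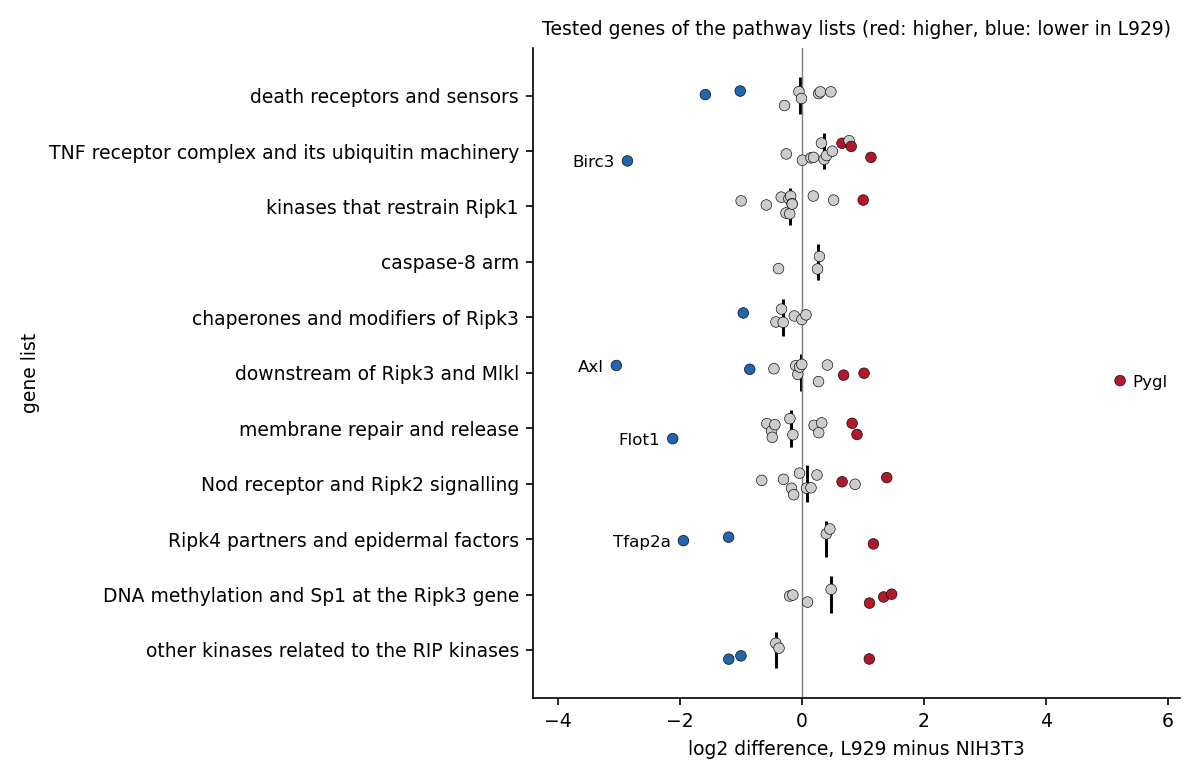
Log2 difference of L929 minus NIH3T3 (horizontal) for each tested gene of the 11 pathway lists (rows), with genes called higher in L929 in red, called lower in blue, not called in grey, and a bar at each list's median. Pygl at 5.22 stands far to the right, Axl at -3.04, Birc3 at -2.86, Flot1 at -2.12 and Tfap2a at -1.94 stand to the left, and most other genes lie near 0.

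For Ripk2, which is not analysed here, the pathway around it could be read. Of 11 tested genes of Nod receptor signalling 2 were higher in L929 and 0 lower (1 lower at an unadjusted limma p under 0.05), and 3 more had no probe set of their own, Nod2 among them. Nod1, a receptor that recruits Ripk2, measured 46.1 and 32.3 in L929 and 60.6 and 71.0 in NIH3T3 (adjusted p = 0.0678, and 0.049 without L929 replicate 1, where it would be called). Card6, a CARD protein reported to bind RIP kinases, measured 165 and 188 against 64.2 and 59.8 (log2 difference 1.39, adjusted p = 2.84e-04). Xiap, the ligase that ubiquitinates Ripk2, measured 958 and 838 against 520.1 and 609.6 (0.66, adjusted p = 0.00268) with probe sets from 0.19 to 1.0, and fell under the fold threshold at 0.57 without L929 replicate 1 and 0.55 without NIH3T3 replicate 1. The higher count was then 1 without L929 replicate 1, and 1 gene was lower without L929 replicate 1 or NIH3T3 replicate 1.

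Ripk4 partners and epidermal factors had 1 of 5 tested genes higher and 2 lower, and 3 were too dim to test. The transcription factor Tfap2a measured 21.3 and 41.4 in L929 and 127 and 151 in NIH3T3 (log2 difference -1.94, adjusted p = 7.01e-04, with probe sets from -3.37 to -0.83), and Dvl2, a Wnt pathway protein, was 2.30-fold lower (adjusted p = 1.56e-04). Trp63, a regulator of epidermal fate, measured 46.2 and 43.4 in L929 and 11.5 and 19.9 in NIH3T3, where 1 of 2 arrays lay above the level (adjusted p = 0.012, but 0.056 without L929 replicate 1 and 0.0648 without NIH3T3 replicate 1). The epidermal genes Sfn, Pkp1 and Grhl3 were among those below the level on all 4 arrays, as Ripk4 was.

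DNA methylation of the RIPK3 promoter and Sp1 have been linked to RIPK3 levels in other cells, and the enzymes were read here beside the gene. Of 7 tested genes 3 were higher in L929, the line with the bright Ripk3 signal, and 0 lower, where 17.3% of all genes tested were called higher (0 lower also at an unadjusted limma p under 0.05). Uhrf1, which guides maintenance methylation, measured 1389 and 1259 against 541 and 492 (log2 difference 1.34, adjusted p = 2.88e-05), and the methyltransferase Dnmt3b measured 183 and 196 against 65.2 and 60.8 (1.48, adjusted p = 1.58e-04, with its other tested probe set at 0.64). Tet2, which oxidises methylcytosine, measured 61.9 and 77.0 against 22.9 and 33.1 (1.11, adjusted p = 0.00969, and 0.0624 without L929 replicate 2). The maintenance enzyme Dnmt1 overlapped between the lines, at 903 and 960.0 against 939 and 809, and Sp1, at 1218 and 1177 against 872 and 839, lay under the fold threshold. Whether any of them bears on Ripk3 was not tested.

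Among other kinases related to the RIP kinases, 1 of 5 tested genes was higher in L929 and 2 lower, and 2 genes had no probe set of their own. Lrrk1 measured 311 and 309 in L929 and 156 and 125 in NIH3T3 (log2 difference 1.11, adjusted p = 3.54e-04). Its 3 tested probe sets ran from 0.75 to 1.73. Without NIH3T3 replicate 1 a different probe set was chosen for Lrrk1, with a difference of 1.74. The paralogue Lrrk2 went the other way, at 98.7 and 87.8 against 182 and 206 (-1.0, adjusted p = 0.00107). Irak2, a kinase of Toll-like receptor signalling, measured 60.8 and 76.4 against 166 and 167 (-1.20, adjusted p = 8.11e-04). Dstyk, once named Ripk5, measured 82.2 and 62.8 against 104.8 and 86.8 and was not called. Without L929 replicate 1, 2 genes of this list were higher.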

How the data were processed

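The authors deposited 1 intensity per probe set and array, a MAS5 signal on a linear scale per the submitters' processing notes; its version is not given in the sources used here, nor is its target value. No detection call was used. Arrays were scaled to the geometric mean of their trimmed means (2% left out at each end of 45037 non-control probe sets; factors 1.07, 1.14, 1.13 and 0.726), because NIH3T3 replicate 2 was brighter as deposited, with a trimmed mean of 210.3 against 135 to 142. An offset of 8.01, the 25th percentile, was added before log2. A probe set entered the test when both arrays of either line exceeded 17.3.

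L929 was compared with NIH3T3 over all 4 arrays with limma 3.58.1 (lmFit, eBayes with trend) in R 4.3.3, without a replicate block. Each gene took its tested probe set with the highest mean, and p-values were adjusted over 12676 genes. This choice was made anew in each run with an array left out, so the probe set could differ from the main one. A fold against a line below 17.3 on both arrays is a bound, the brighter line's mean log2 signal against 17.3. Probe sets were named from the platform annotation (34945 with 1 symbol, 932 with several, 9160 unnamed), and 34754 annotation entries were matched by identifier to the GRCm38.p6 gene table, which gave gene order. The array files name no build.

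In simulated data for this comparison over 26323 probe sets, with 50 changed per fold size, 32% of those changed 1.5-fold, 90% of 2-fold and 100% of 4-fold and 8-fold were recovered, with 20 false calls. The changes were planted only in probe sets with a mean above the median, so these shares do not cover dimmer ones. Far fewer probe sets were changed there than were called in the data. The simulated noise took its spread from a smooth curve against the mean, without the differences in spread between probe sets of like mean. Recovery in the data may therefore be lower and false calls more frequent. Precision is limited by the 2 arrays per line.

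The members and lists were chosen with earlier results of these data known. Genes named are all members' probe sets, up to 4 called genes with the largest difference per list, 17 direct partners, the 5 genes nearest to Ripk3 and to Mlkl, and cell type markers by count. Map3k7, Mapkapk2, Tyro3, Tnfrsf1a, Dnmt1, Sp1, Dstyk, dim epidermal genes, Ogt, Epcam, Dcn, Thy1, Ptprc, Itgam, Cd3e, Lyz2, Cd14, the promoter motifs and the map neighbours were added after their values were seen. So were Cd68, Adgre1, Csf1r and Spi1. Same-numbered replicates did not deviate together (r = 0.0138 across 27438 probe sets), so the numbers were not taken to pair the samples.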

Additional observations from a re-analysis of the deposited data

How the results depend on the processing

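The 15 alternatives left the direction of Ripk3 and Mlkl as given. Without scaling, which keeps the brighter NIH3T3 replicate 2 as deposited, the log2 difference was 6.48 for Ripk3 and -0.63 for Mlkl, 818 genes were called higher in place of 2192 and 1805 lower in place of 2238, and 3 list genes were called higher in place of 16. The offset set the size for dim signals: Ripk3 stood at 8.42 with an offset of 1 and at 4.90 with an offset of 32, and Ripk4 probe set 1418487_at at -1.07 with an offset of 1. Probe set 1418488_s_at moved from -0.07 to 0.07 without NIH3T3 replicate 1; no direction is read from either Ripk4 probe set. Leaving out each array gave 6.55 to 6.71 for Ripk3 and -0.38 to -0.30 for Mlkl. With the replicate block, 2208 genes were called higher and 2281 lower, and 17 list genes higher and 12 lower. Signs turned for some uncalled genes. Without scaling they were Fadd (-0.02), Birc2 (-0.12), Cyld (-0.09) and Ppm1b (-0.22). With the mean of all tested probe sets they were Fadd (-0.01), Cflar (0.21), Cyld (-0.15) and Ppm1b (-0.39, limma adjusted p = 0.00749). The tested probe sets of each of these genes lie on both sides of 0. Birc2 turned without L929 replicate 1 (-0.07) or NIH3T3 replicate 1 (-0.02), in a range from -0.07 to 0.38 with each array left out. Without scaling, the median log2 difference over all genes tested also moved, from 0.01 to -0.26. The cause of the turns without scaling and of Birc2 was not tested. Of the genes nearest to Ripk3, 2 of 5 remained with an offset of 32. Azi2 was not called with the mean of its probe sets (0.12), nor Tyro3 with an offset of 32 (0.55). With 2 arrays per line and no detection calls, signals below 17.3 carry no order.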
